A study of Mus musculus with 12 samples.

Results

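Messenger RNA was compared between the mammary tumor and the liver of mice that had received a bispecific antibody 24 h earlier. The comparison covers 6 of the 12 libraries of the study, 3 of tumor and 3 of liver, and all 52636 gene identifiers of the deposited count table, 15953 of which had enough counts to be tested. All mice were female FVB/NJ animals that carried a transplanted piece of an MMTV-HER2 transgenic tumor (founder line 5, Fo5) in a mammary fat pad. The HER2 transgene of that line is driven by the mouse mammary tumor virus promoter, and all tumors descend from this 1 founder line. Treatment began when tumor volumes averaged about 350 to 500 mm3. Treated mice received 1 tail vein injection of anti-HER2(4D5-2C11)/CD3 at 5 mg/kg, and the other 6 libraries, 3 of liver and 3 of tumor, came from mice given the same volume of histidine, sucrose and Tween buffer (vehicle). The series describes 3 mice per treatment, but no label ties a library number to a mouse, so libraries were not paired and p-values measure the spread between the 3 libraries of a group. The labels give no ages.

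A T cell-dependent bispecific antibody (TDB) binds a tumor antigen, here HER2, with one arm and the CD3 complex of the T cell receptor with the other. T cells bridged to a target in this way release granzymes, perforin and cytokines, among them interferon-gamma. Interferon-gamma acts on almost every cell type through gamma-activated sites in promoters, and through the transcription factor Irf1, which it induces and which binds interferon-stimulated response elements. Its targets include the immunity-related GTPases, the guanylate-binding proteins, the machinery of antigen presentation and the chemokines that bind Cxcr3. The liver, which clears blood and holds many lymphocytes, macrophages and sinusoidal endothelial cells, was sampled from the same treated group.

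The promoters of 5 genes named in the results are printed here as examples, and no expression result rests on their letters. Irf1 and Gbp5, a guanylate-binding protein, were higher in tumor, Igtp, an immunity-related GTPase, did not pass, Isg15, a ubiquitin-like interferon product, was lower in tumor, and Alb, which encodes serum albumin, marks the liver. Each line gives the 250 bases before the annotated start, 5′ to 3′ on the gene's strand, from RefSeq on GRCm38.p6, with motif matches in capitals. Motifs were searched on both strands as GAAA followed, after any 2 bases, by another GAAA (response element core), TTCNNNGAA (gamma-activated site) and GTTAAT (HNF1 motif, of a hepatocyte factor, marked in Alb only). The windows are chr11:53769764-53770013 (plus strand) for Irf1, chr3:142496684-142496933 (plus) for Gbp5, chr11:58199306-58199555 (plus) for Igtp, chr4:156200819-156201068 (minus) for Isg15 and chr5:90460620-90460869 (plus) for Alb.
Irf1: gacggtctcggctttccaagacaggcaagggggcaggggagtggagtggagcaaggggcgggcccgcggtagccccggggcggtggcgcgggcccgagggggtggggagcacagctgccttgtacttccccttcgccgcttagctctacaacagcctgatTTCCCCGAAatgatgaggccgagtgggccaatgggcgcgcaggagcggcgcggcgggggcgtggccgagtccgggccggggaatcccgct
Gbp5: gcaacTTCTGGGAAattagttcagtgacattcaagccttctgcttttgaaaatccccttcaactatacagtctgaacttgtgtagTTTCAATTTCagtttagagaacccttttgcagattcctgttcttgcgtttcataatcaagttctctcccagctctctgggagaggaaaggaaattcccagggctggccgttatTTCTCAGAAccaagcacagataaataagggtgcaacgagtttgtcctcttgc
Igtp: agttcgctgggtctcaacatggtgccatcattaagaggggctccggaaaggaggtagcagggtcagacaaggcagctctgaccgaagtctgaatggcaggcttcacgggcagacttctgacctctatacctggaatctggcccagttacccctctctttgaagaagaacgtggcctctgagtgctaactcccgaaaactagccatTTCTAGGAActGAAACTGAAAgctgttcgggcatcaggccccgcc
Isg15: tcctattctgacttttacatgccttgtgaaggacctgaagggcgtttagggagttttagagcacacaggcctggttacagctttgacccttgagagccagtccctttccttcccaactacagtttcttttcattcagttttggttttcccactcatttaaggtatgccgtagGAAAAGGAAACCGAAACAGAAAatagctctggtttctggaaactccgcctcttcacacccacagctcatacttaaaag
Alb: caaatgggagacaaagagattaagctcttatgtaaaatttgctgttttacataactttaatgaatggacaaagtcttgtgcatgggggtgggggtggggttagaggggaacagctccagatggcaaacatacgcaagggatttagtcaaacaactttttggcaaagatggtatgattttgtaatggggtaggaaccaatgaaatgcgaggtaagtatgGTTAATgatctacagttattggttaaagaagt
The Irf1 window holds 1 gamma-activated site, that of Gbp5 holds 1 response element core and 2 gamma-activated sites, that of Igtp 1 of each, and that of Isg15 3 response element cores that overlap each other. Of the 27 tested genes of an interferon-gamma response list, 18 had a promoter in the RefSeq table, 12 of these with a response element core and 10 with a gamma-activated site. Among all 32851 promoter windows of the table, searched over the same 250 bases before the start, 2.98% hold the core and 7.02% the site. Of 20 tested genes of a type I interferon list, 14 had a promoter and 7 of them the core. None of the 18 hepatocyte marker promoters held the core, and 5 (Alb, Serpina1a, Serpina1b, Fgb and Fga) held the HNF1 motif, which 6.43% of all windows hold. Genes that were higher in tumor and genes that did not pass both carry matches, which describe letters in these windows and no binding.

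The 6 libraries held 20551619 to 29396324 counts each. Albumin took 7.96% to 9.30% of the counts in the antibody-treated livers, and the milk casein Csn3 took 2.03% to 2.13% in the antibody-treated tumors. The 50 most abundant genes held 34.9% to 37.5% of counts in liver and 16.7% to 17.2% in tumor, and the trimmed mean of M-values (TMM) scaling, which assumes that most genes do not differ, set factors of 0.622 to 0.730 for liver and 1.46 to 1.5 for tumor. CPM, the counts scaled to a common total, below use these scaled library sizes. The first principal component separated the organs and held 94.6% of the variance. Liver replicate 3 stood apart from the other 2 livers on the second component (-77.9 against 49.1 and 21.1) and had 2.05% mitochondrial counts against 0.847% and 0.914%. The biological coefficient of variation was 38.2% among the livers and 10.5% among the tumors. In bulk RNA, fewer cells of a type and less RNA per cell cannot be told apart.

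Tumor and liver differed in most genes. By the quasi-likelihood test of edgeR, with p-values adjusted after Benjamini and Hochberg, 5432 genes (34.1% of those tested) were higher in tumor and 5349 (33.5%) were lower, 67.6% in all. Counts of list members below are to be read beside these shares. A test against a 2-fold null called 3428 genes higher (21.5%) and 3203 lower (20.1%), 41.6% in all. The balance of the calls depended on the scaling between organs. Of all calls, 50.4% were higher in tumor with TMM, 55.5% with upper quartile scaling and 79.2% with library totals alone, and the median log2 difference of all tested genes was 0.04, 0.19 and 1.17 under these 3 scalings. Library totals alone thus move genes toward tumor. For 2706 genes (17%) the 95% interval of the difference lay within 2-fold in both directions. Of the 6631 calls beyond 2-fold, 6411 (96.7%) were called in the same direction between tumor and liver of vehicle mice.

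**Figure D1:**
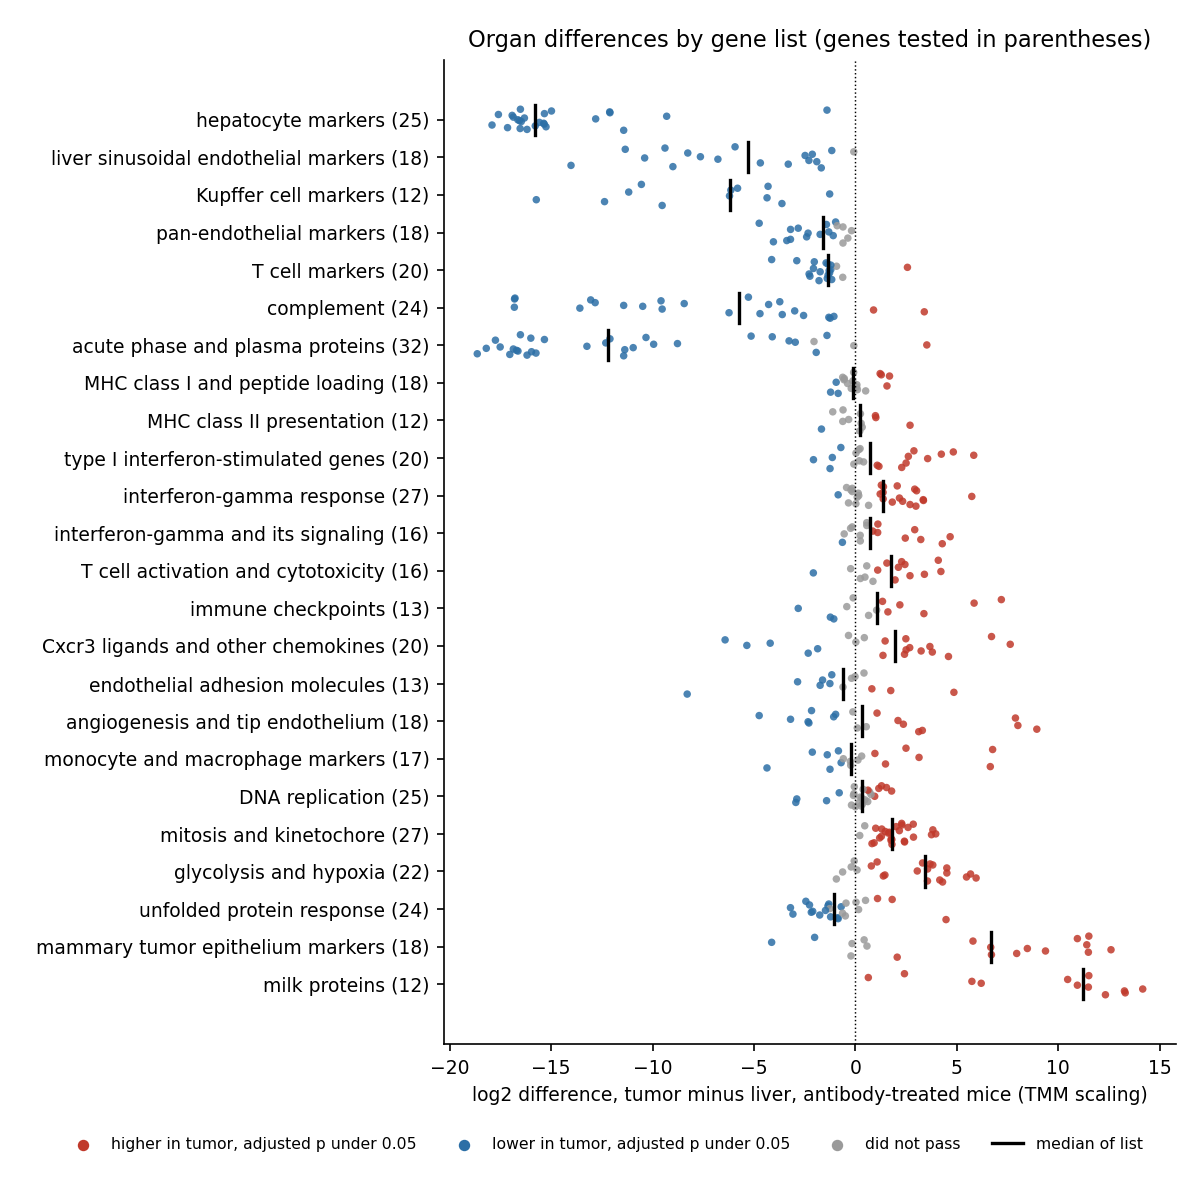
Each point is the log2 difference of 1 gene, tumor minus liver, in antibody-treated mice, for 24 gene lists named on the left with the number of tested members. Red and blue points passed an adjusted p of 0.05 in edgeR, black bars are list medians, and points beyond about 10 on either side often rest on groups with 0 or few counts, whose fitted values are no bounds. Hepatocyte markers lie far to the left and milk proteins far to the right, while most immune lists lie between. With library totals the median of all genes moves from 0.04 to 1.17, and the medians of the class I, adhesion molecule, monocyte and macrophage and unfolded protein lists turn from below to above 0.

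The tissues matched their labels. All 25 hepatocyte markers were lower in tumor, 20 of 20 tested genes of the urea cycle and amino acid catabolism, 28 of 28 cytochrome P450 and bile acid genes and 11 of 11 apolipoproteins as well. With library totals this held for 24 of the 25 hepatocyte markers and for every tested gene of the other 3 lists. The hepatocyte markers together took 19.1% to 20.5% of counts in liver and 0.280% to 0.421% in tumor. Alb stood at 149630.0, 118100.0 and 127430.0 CPM in liver and 3.1, 1.67 and 0.5 CPM in tumor. By size of the fitted log2 difference, the 10 genes most in favor of liver with a mean of at least 10 CPM were Apcs, Serpina10, Pon1, Serpina1c, Itih1, Apoc4, C4bp, Asgr1, Saa4 and Ces1b, most of them plasma proteins made by hepatocytes, and all had 0 counts in the 3 tumor libraries. Fitted values of such groups are no bounds, so this order is not one of observed ratios. Itih3, with 1 count in tumor, had a ratio of 288329 in favor of liver (95% counting interval 51748 to 11388491). Against a floor of 3 counts over the group, Apcs, which encodes serum amyloid P, was at least 72978-fold higher in liver (1849, 2991 and 1102 CPM), and Asgr1, the asialoglycoprotein receptor, at least 43134-fold (1646, 1259 and 682 CPM). Hnf4a, the transcription factor that maintains hepatocyte identity, had 1 count in tumor against 54163 in liver. The source of the Alb counts in tumor was not tested.

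At the other end stood genes of the tumor, among them caseins of the secretory mammary epithelium. The 10 genes most in favor of tumor by the fitted difference were Tfap2c, Csn2, Atp6v1b1, Clca2, Tbx15, BC006965, Tmprss13, Csn1s1, Pinc and Csn1s2a. This order too is not one of observed ratios. Elf5, with 2 counts in liver, had a ratio of 6995 (95% counting interval 1936 to 57762), whereas Pinc was at least 774-fold higher in tumor. Tfap2c, a transcription factor of mammary luminal cells, was at 223, 221 and 201 CPM in tumor and had 0 counts in liver, at least 3392-fold higher in tumor. Csn2, which encodes beta-casein, stood at 573, 864 and 1175 CPM in tumor against 2 counts in all 3 livers, a ratio of 20472 (95% counting interval 5667 to 169050.0). All 12 tested milk protein genes were higher in tumor. Csn3 was at 2.8, 0.755 and 11.2 CPM in the liver libraries and 14340.0, 13895 and 13942 CPM in the tumor libraries, and the liver value was highest in replicate 3, the replicate that stands apart. Of 18 tested mammary epithelial markers, 12 were higher and 2 lower, and Epcam, an epithelial adhesion protein, was at 2.07, 1.92 and 2.53 CPM in liver and 835, 796 and 696 CPM in tumor (log2 difference 8.48 ± 0.26 (SE), adjusted p = 3.4e-06). Krt8, a keratin of simple epithelia that hepatocytes also make, stood at 81.1, 90.5 and 59.7 CPM in the liver libraries and 115, 102 and 95.3 CPM in the tumor libraries and did not pass (log2 difference 0.43, 95% interval -0.06 to 0.92), although each tumor lay above each liver.

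Erbb2, the mouse gene of HER2, was higher in tumor, at 1.34, 1.97 and 3.47 CPM in the liver libraries and 234, 218 and 239.7 CPM in the tumor libraries, a 102-fold difference (log2 difference 6.67 ± 0.39 (SE), adjusted p = 1.4e-05). The groups lay far apart, and the liver values were low but not 0. Whether reads of the transgene were counted on Erbb2 is not given in the sources used here. Erbb3, its signaling partner, was at 71, 105 and 293 CPM in the liver libraries and 230.2, 232 and 235 CPM in the tumor libraries and did not pass (adjusted p = 0.34), with liver replicate 3 above all tumors. Among 14 tested HER family members and ligands, 8 were higher and 4 lower (9 higher and 2 lower with library totals): Nrg1, a ligand of Erbb3, by 5.13 and Hbegf by 2.04 (log2), while Egfr, which hepatocytes express strongly, was at a log2 difference of -2.17. With library totals Egfr did not pass (-1.07, adjusted p = 0.0668).

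T cell receptor genes were lower in tumor than in liver, and effector genes of T cells were higher. Of 20 tested T cell markers, 17 were lower and 1 was higher, with a median log2 difference of -1.37 beside 0.04 for all genes. With library totals only 5 were lower, 1 was higher and the median was -0.24. Summed over the list, T cell markers reached 96.0, 100.1 and 86.7 CPM in liver and 32.5, 29.2 and 19.3 CPM in tumor. The sum leans on the most abundant member, Zap70, whose values are given below. Cd3e, the CD3 subunit that such antibodies bind, was at 4.01, 3.14 and 4.8 CPM in the liver libraries and 1.97, 1.81 and 0.875 CPM in the tumor libraries (log2 difference -1.35 ± 0.35 (SE), adjusted p = 0.013). Each liver exceeded each tumor, and tumor replicate 3 was lowest. With library totals the difference of Cd3e was -0.22 and did not pass (adjusted p = 0.587). Cd3g, another CD3 subunit, was at 6.54, 4.88 and 6 CPM in liver and 1.34, 1.49 and 0.719 CPM in tumor (log2 difference -2.28 ± 0.31 (SE), adjusted p = 0.0007), and Trbc2, a constant region of the receptor beta chain, was at 8.74, 9.58 and 6.67 CPM in liver and 1.52, 1.33 and 0.5 CPM in tumor (log2 difference -2.89 ± 0.41 (SE), adjusted p = 0.00078).

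Of the coreceptors, Cd8a, of cytotoxic cells, stood at 3.54, 3.72 and 5.93 CPM in the liver libraries and 2.52, 1.91 and 1.25 CPM in the tumor libraries (log2 difference -1.21 ± 0.34 (SE), adjusted p = 0.017), and Cd4, of helper cells, at 3.14, 4.41 and 8.46 CPM in liver and 2.06, 2.33 and 2.22 CPM in tumor (log2 difference -1.27 ± 0.37 (SE), adjusted p = 0.02). With library totals neither passed (-0.10 for Cd8a and -0.17 for Cd4), whereas Cd3g, Trbc2 and Zap70 did. Cd8a did not pass without tumor replicate 2 or 3 either (adjusted p = 0.0561 and 0.0562). The call of Cd4 ended without any 1 of the 3 tumor libraries (adjusted p = 0.0669, 0.0573 and 0.0631) and in both fits of FPKM. Tumors of vehicle mice held 63, 29 and 70 Cd4 counts but only 7, 6 and 1 counts of Cd3d, Cd3e and Cd3g together. Cd4 counts in tumor therefore need not come from helper T cells, and their source was not tested. Zap70, the kinase that docks on the engaged receptor, differed more (log2 difference -4.13 ± 0.49 (SE), adjusted p = 0.00036), at 27.6, 22.6 and 8.8 CPM in liver and 1.03, 1.49 and 0.812 CPM in tumor. Its liver value was lowest in replicate 3, and the source of the Zap70 counts in liver was not tested. Foxp3, which defines regulatory T cells, was the 1 marker that was higher in tumor, at 0, 0.174 and 0.133 CPM in the liver libraries and 1.03, 0.488 and 0.437 CPM in the tumor libraries (log2 difference 2.57 ± 0.75 (SE), adjusted p = 0.019), on 5 counts in the 3 livers and 69 in the 3 tumors. Without tumor replicate 1 Foxp3 did not pass (2.09, adjusted p = 0.0515).

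Among 16 tested genes of T cell activation and cytotoxicity, 10 were higher in tumor and 1 was lower (median 1.75; 15 higher and 0 lower with library totals). Ifng, which encodes interferon-gamma, was at 0.0668, 0.581 and 0.0667 CPM in the liver libraries and 4.1, 5.65 and 5.12 CPM in the tumor libraries, a 19.5-fold difference (log2 difference 4.28 ± 0.60 (SE), adjusted p = 0.00078). All 3 tumors lay above all 3 livers, where replicate 2 was highest. Gzmb, a granzyme that triggers apoptosis in target cells, was at 2.34, 5.87 and 2.67 CPM in liver and 25, 28.3 and 17.4 CPM in tumor (log2 difference 2.69 ± 0.40 (SE), adjusted p = 0.001). Prf1, the pore protein perforin, stood at 1, 2.03 and 1.27 CPM in liver and 8.07, 6.61 and 4.19 CPM in tumor (log2 difference 2.12 ± 0.37 (SE), adjusted p = 0.0021). Neither gene's groups overlapped. The induced receptors Il2ra and Tnfrsf9, which recently activated T cells carry, differed by 4.22 ± 0.69 and 4.09 ± 0.35 (log2 ± SE), with Il2ra at 0, 0.29 and 0.866 CPM in liver and 8.5, 6.7 and 6.41 CPM in tumor. Tnfrsf9 also had 39, 14 and 45 counts in the vehicle tumors, where CD3 genes had few, and the source of these counts was not tested. Tnf was at 0.734, 1.74 and 1.33 CPM in liver and 6.1, 8.98 and 5.81 CPM in tumor (log2 difference 2.44 ± 0.35 (SE), adjusted p = 0.00089). The vehicle tumors held 24, 24 and 27 Tnf counts and the treated tumors 201, 386 and 186. The source of the Tnf counts was not tested either.

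Others of the list did not pass. Gzma, a second granzyme, was at 4.87, 6.85 and 2.8 CPM in the liver libraries and 9.35, 7.95 and 2.87 CPM in the tumor libraries (log2 difference 0.47, 95% interval -0.71 to 1.65), and Nkg7 and Fasl differed by -0.23 and 0.25. Icos, a costimulatory receptor, was lower in tumor, at 1.67, 1.92 and 4.67 CPM in liver and 0.91, 0.768 and 0.25 CPM in tumor (log2 difference -2.07 ± 0.58 (SE), adjusted p = 0.016), but did not pass with library totals (-0.98). NK cells and some myeloid cells share parts of this list, and of 8 tested NK cell markers 2 were higher and 1 lower in tumor (5 higher and 0 lower with library totals). The part of these cells in the effector genes was not tested.

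Because counts of 2 genes within a library need no scaling, effector counts were also set against the summed counts of Cd3d, Cd3e and Cd3g, a choice made after the values had been seen. These sums were 241, 240.0 and 204 counts in the treated livers and 151, 188 and 72 in the treated tumors. Per 100 CD3 counts, Ifng had 0.415, 4.17 and 0.49 counts in liver and 89.4, 129 and 228 in tumor. For Gzmb the ratios were 14.5, 42.1 and 19.6 in liver and 546, 647 and 772 in tumor. The tumors lay above the livers in each of these ratios, and also for Prf1 (6.22, 14.6 and 9.31 against 176, 151 and 186). The CD3 genes were themselves lower in tumor by CPM, which raises any such ratio there. Per 100 CD3 counts, Cd8a had 21.99, 26.67 and 43.63 counts in liver and 54.97, 43.62 and 55.56 in tumor. For Cd4 the ratios were 19.5, 31.67 and 62.25 in liver and 45.03, 53.19 and 98.61 in tumor, which overlap. Tumors of vehicle mice held only 7, 6 and 1 CD3 counts, too few for a ratio, and livers of vehicle mice 97, 88 and 113.

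**Figure D2:**
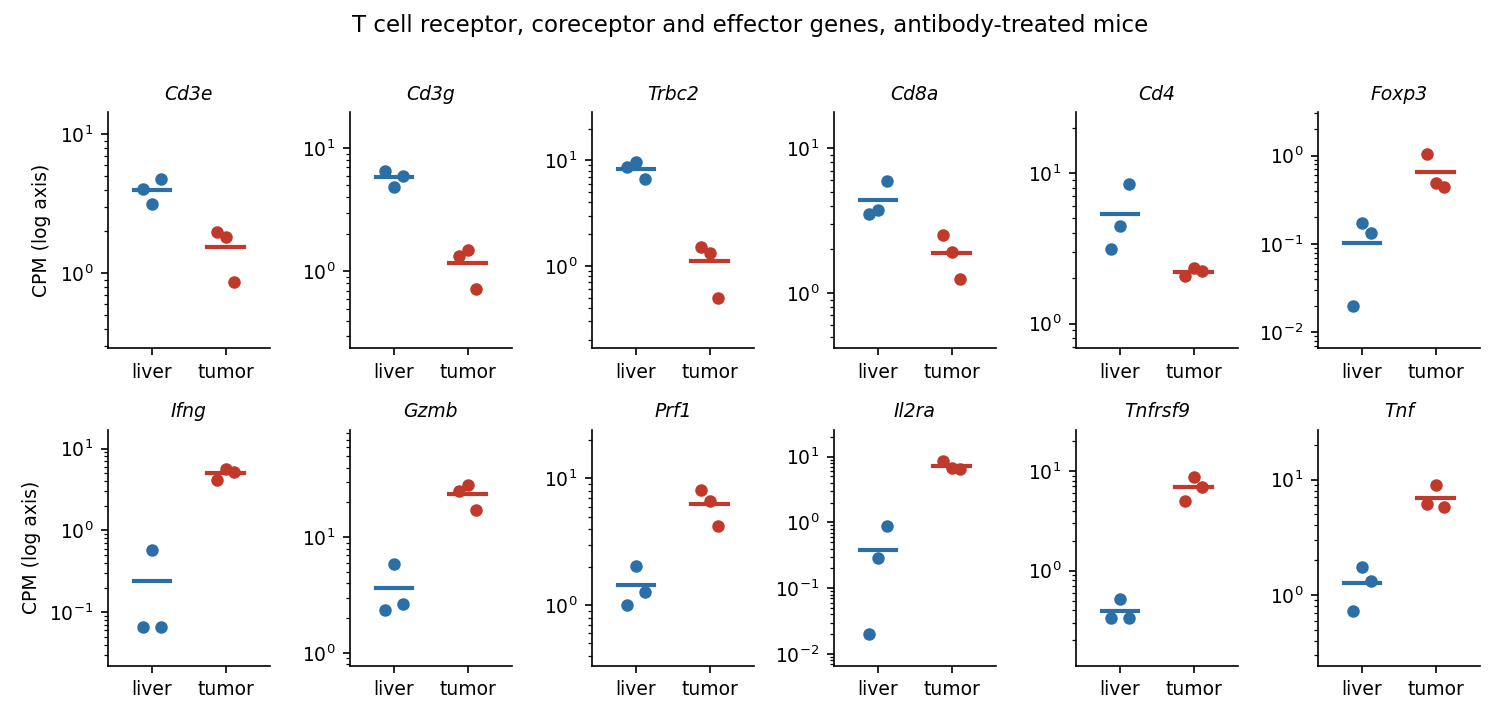
CPM on a log axis in the 3 antibody-treated liver (blue) and 3 antibody-treated tumor libraries (red) for 6 T cell receptor, coreceptor and lineage genes (top) and 6 effector genes (bottom), with bars at the group means. Libraries with 0 counts are drawn at 0.02 CPM. Cd3e, Cd3g, Trbc2, Cd8a and Cd4 are lower in every tumor than in every liver, and Foxp3 and all 6 effector genes are higher in every tumor. With library totals Cd3e, Cd8a and Cd4 do not pass.

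Of 13 tested checkpoint genes, 6 were higher in tumor and 3 lower (10 higher and 1 lower with library totals). Pdcd1, the receptor PD-1, was at 0.334, 0.232 and 0.267 CPM in the liver libraries and 1.49, 1.7 and 0.625 CPM in the tumor libraries (log2 difference 2.19 ± 0.51 (SE), adjusted p = 0.0074). Its ligand Pdcd1lg2 differed most among those with counts in both organs, at 0.267, 0.174 and 0 CPM in liver and 10.7, 10.7 and 5.09 CPM in tumor (log2 difference 5.85 ± 0.64 (SE), adjusted p = 0.00024), whereas the other ligand, Cd274, stood at 30.6, 49.8 and 112 CPM in liver and 80.8, 115 and 106 CPM in tumor and did not pass (adjusted p = 0.24). The receptor Tigit had 0 counts in liver and 77 in tumor, at least 11.2-fold higher, and Ctla4 differed by 3.38 ± 0.57. Lgals9, a galectin that binds Havcr2, was lower in tumor, at 1357, 1369 and 1021 CPM in liver and 170.1, 211 and 149.9 CPM in tumor (log2 difference -2.82 ± 0.24 (SE), adjusted p = 6.6e-05).

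The interferon-gamma response list held genes that were higher in tumor and genes that did not differ beyond the spread between libraries. Of 27 tested members, 16 were higher in tumor, 1 was lower and 10 did not pass, with a median of 1.37 (25 higher and 0 lower, median 2.48, with library totals). Igtp, an immunity-related GTPase that guards against vacuolar pathogens, was at 1971, 1803 and 2226 CPM in the liver libraries and 2269, 2445 and 2015 CPM in the tumor libraries (log2 difference 0.17, 95% interval -0.33 to 0.66). The libraries of the organs overlapped for Igtp, and so did those of Irgm2, Gm12250 and Irf8, whose differences were -0.15, 0.09 and 0.14 (log2). Library totals move these 4 genes toward tumor, as they do the median of all genes.

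Among the guanylate-binding proteins, which attack vacuoles of intracellular pathogens, Gbp2, Gbp3, Gbp4, Gbp5 and Gbp7 were higher in tumor. Gbp4 was at 51.1, 68.3 and 121 CPM in the liver libraries and 777, 939 and 747 CPM in the tumor libraries (log2 difference 3.36 ± 0.36 (SE), adjusted p = 0.00023), and Gbp5 at 15.4, 26.8 and 68.5 CPM in liver and 354, 444 and 325 CPM in tumor (log2 difference 3.34 ± 0.56 (SE), adjusted p = 0.0017). Every tumor exceeded every liver, and within liver replicate 3 was highest for both. Gbp3, Gbp7 and Gbp2 differed by 2.33, 2.17 and 1.82, with Gbp2 at 425, 754 and 676 CPM in liver and 2136, 2266 and 2142 CPM in tumor. Members of this family, of the Tgtp pair and of the class I genes are near-identical copies, so reads may be split between them. Irf1 was at 223, 231 and 307 CPM in liver and 562, 659 and 554 CPM in tumor (log2 difference 1.22 ± 0.21 (SE), adjusted p = 0.0017), and Irgm1, a regulator of the immunity-related GTPases, at 639, 702 and 1081 CPM in liver and 2058, 2254 and 1928 CPM in tumor (log2 difference 1.37 ± 0.26 (SE), adjusted p = 0.0033). Socs1, the feedback inhibitor of the receptor, and Batf2, a partner of Irf1, differed by 2.93 ± 0.30 and 2.98 ± 0.22 (log2 ± SE). Ido1, a tryptophan-degrading enzyme, had 1 count in liver and 147 in tumor.

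Of 16 tested genes of interferon-gamma signaling, 8 were higher and 1 lower (15 higher and 0 lower with library totals). Il18r1 and Il12rb1, receptor chains for the cytokines that drive interferon-gamma production, were higher by 4.67 ± 0.56 and 3.22 ± 0.28 (log2 ± SE). Il18r1 stood at 0.134, 1.34 and 1.2 CPM in liver and 25, 24.5 and 19.7 CPM in tumor. The kinase Jak2 and the factor Stat3 were higher by 1.10 and 1.11, but both calls ended when any 1 library other than liver replicate 3 was left out (adjusted p of 0.08 to 0.133 for Jak2 and 0.0515 to 0.085 for Stat3). The receptor chain Ifngr2 was at 48.7, 48 and 33.5 CPM in liver and 53.4, 52.4 and 48.1 CPM in tumor and did not pass, nor did Socs3 and Stat2.

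**Figure D3:**
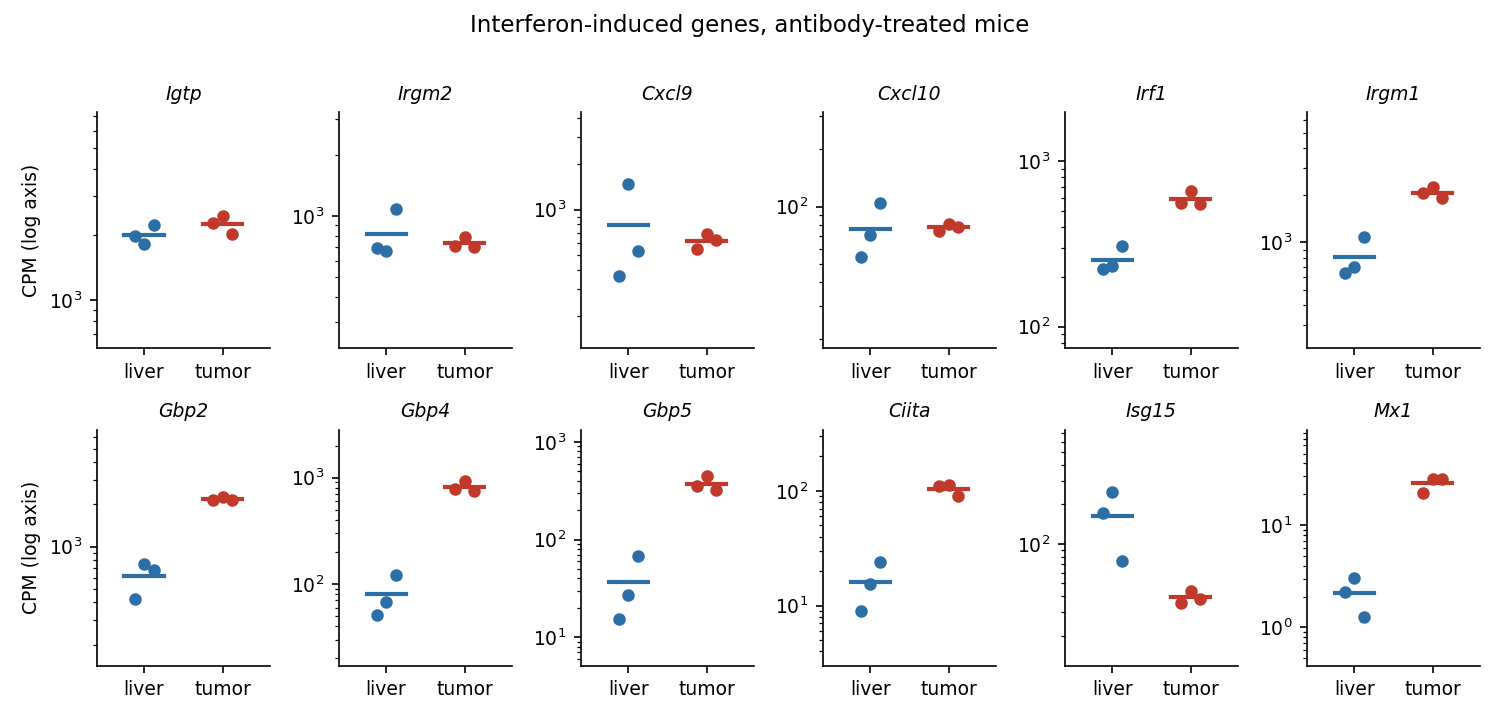
CPM on a log axis in the 3 antibody-treated liver (blue) and 3 antibody-treated tumor libraries (red) for 12 interferon-induced genes, with bars at the group means. The ranges of the organs overlap for Igtp, Irgm2, Cxcl9 and Cxcl10, the tumors are higher for Irf1, Irgm1, Gbp2, Gbp4, Gbp5, Ciita and Mx1, and the livers are higher for Isg15. With library totals all genes move toward tumor, and Isg15 does not pass.

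Genes usually listed as targets of type I interferon were divided too. Of 20 tested, 10 were higher and 4 lower in tumor, with a median of 0.74 (16 higher and 0 lower with library totals). Oas2, an oligoadenylate synthetase that senses double-stranded RNA, was at 0.467, 0.987 and 1.33 CPM in the liver libraries and 46.2, 59.1 and 54.9 CPM in the tumor libraries (log2 difference 5.84 ± 0.37 (SE), adjusted p = 1.9e-05) and its relative Oasl2 at 5.41, 9.64 and 10.5 CPM in liver and 229.6, 282 and 216 CPM in tumor (log2 difference 4.83 ± 0.32 (SE), adjusted p = 2.4e-05). Mx1, an antiviral GTPase, differed by 3.56 ± 0.34. In the other direction, Isg15 was at 172, 247 and 73.6 CPM in the liver libraries and 35.4, 43.8 and 38.2 CPM in the tumor libraries (log2 difference -2.07 ± 0.42 (SE), adjusted p = 0.0044) and Bst2, which tethers budding virions, at 518, 639 and 232 CPM in liver and 194, 231 and 159 CPM in tumor (log2 difference -1.25 ± 0.38 (SE), adjusted p = 0.023). With library totals neither passed, at -0.91 and -0.09. Bst2 also did not pass in both fits of FPKM or without liver replicate 1, liver replicate 2, tumor replicate 1 or tumor replicate 3 (adjusted p of 0.0534 to 0.0829). The groups did not overlap for Isg15, and liver replicate 3 held the lowest liver value of both genes. Ifit1, Irf7 and Usp18 differed by -0.08, 0.19 and 0.23 and did not pass.

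The peptide transporter of antigen presentation and 2 transcriptional regulators were higher in tumor, while the main presenting chains did not pass. Tap1, a subunit of the transporter of class I presentation, was at 172, 203 and 222 CPM in the liver libraries and 639.6, 685 and 591 CPM in the tumor libraries (log2 difference 1.68 ± 0.19 (SE), adjusted p = 0.00024), and Tap2 and Tapbp differed by 1.28 and 1.22. H2-K1 was at 1739, 2136 and 1220.1 CPM in liver and 1552, 1715 and 1152 CPM in tumor (log2 difference -0.21, 95% interval -0.88 to 0.47), and H2-D1 at 1970.0, 2609 and 1538 CPM in liver and 2342, 2512 and 1701 CPM in tumor (0.10, 95% interval -0.57 to 0.77). Of 18 tested genes of class I presentation, 4 were higher and 3 lower with a median of -0.11, which turned to 1.03 with 12 higher and 0 lower under library totals. Without liver replicate 3, 5 were higher and 8 lower. Calr, a chaperone of class I folding, was lower, at 3032, 3251 and 2483 CPM in liver and 1363, 1236 and 1157 CPM in tumor (log2 difference -1.22 ± 0.22 (SE), adjusted p = 0.0021), but with library totals its difference was -0.08 and did not pass.

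The regulators were Ciita and Nlrc5. Ciita, which drives class II genes, was at 9.01, 15.5 and 23.9 CPM in the liver libraries and 110.1, 114 and 90 CPM in the tumor libraries (log2 difference 2.69 ± 0.37 (SE), adjusted p = 0.00065), and Nlrc5, which drives class I genes, at 13.8, 18.9 and 53.2 CPM in liver and 229, 250.4 and 215 CPM in tumor (log2 difference 3.02 ± 0.52 (SE), adjusted p = 0.002). Of the class II genes, H2-Ab1 was at 273, 317 and 148 CPM in liver and 219, 214 and 153 CPM in tumor (-0.33, 95% interval -1.08 to 0.41) and Cd74, the invariant chain, at 609, 793 and 537 CPM in liver and 875, 779 and 600.4 CPM in tumor (0.22, 95% interval -0.35 to 0.79), and neither passed. Of 12 tested class II genes, 3 were higher and 1 lower (8 higher and 0 lower with library totals).

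The 3 chemokines that bind Cxcr3, a receptor of activated T cells, were detected in all 6 libraries. Cxcl9 was at 367, 1469 and 531 CPM in the liver libraries and 549, 689 and 632 CPM in the tumor libraries (log2 difference -0.34, 95% interval -1.53 to 0.85), with liver replicate 2 above all other libraries. Cxcl10 was at 53.9, 71 and 105 CPM in liver and 74.3, 81 and 78.1 CPM in tumor (0.02, 95% interval -0.59 to 0.64). Cxcl11 alone of the 3 passed, at 9.68, 18.7 and 20.2 CPM in liver and 39.1, 47.5 and 47.6 CPM in tumor (log2 difference 1.47 ± 0.30 (SE), adjusted p = 0.0043). The receptor Cxcr3 itself was lower in tumor, at 1.34, 2.27 and 1.6 CPM in liver and 0.698, 0.442 and 0.344 CPM in tumor (log2 difference -1.81 ± 0.37 (SE), adjusted p = 0.0041), but did not pass with library totals (-0.68).

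In the list of 20 tested chemokines, which includes Cxcl9, Cxcl10 and Cxcl11, 12 were higher and 5 lower (14 higher and 3 lower with library totals). Cx3cl1, a membrane-bound chemokine, stood at 0.467, 1.28 and 1.67 CPM in liver and 225, 263 and 194 CPM in tumor (log2 difference 7.63 ± 0.47 (SE), adjusted p = 1.6e-05), and Ccl5, which T cells secrete, at 3.27, 4.07 and 1.93 CPM in liver and 19.1, 19.1 and 14.4 CPM in tumor (log2 difference 2.50 ± 0.30 (SE), adjusted p = 0.00037). Ccl12, Ccl3 and Ccl4, which attract monocytes and T cells, were higher by 4.59, 3.79 and 3.24. Cxcl12, the retention signal of bone marrow and liver sinusoids, was lower in tumor, at 716, 740.1 and 738 CPM in liver and 5.86, 10.2 and 9.44 CPM in tumor (log2 difference -6.42 ± 0.30 (SE), adjusted p = 6.6e-06), as were Ccl9 (-5.35) and the neutrophil attractant Cxcl1 (-4.20). Of 17 homing receptors and integrins tested, 4 were higher and 6 lower (9 higher and 1 lower with library totals), among them Cxcr4, the receptor of Cxcl12, at 1.47, 1.63 and 1.27 CPM in liver and 65, 60.3 and 75.5 CPM in tumor, and S1pr1, which endothelium also expresses, at 146, 159 and 173 CPM in liver and 7.1, 9.72 and 14.9 CPM in tumor.

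Endothelial genes were mostly lower in tumor, with a different set of vessel genes higher there. Of 18 tested pan-endothelial markers 13 were lower and none higher, with a median of -1.58; with library totals 8 were lower, 2 higher and the median was -0.43. Pecam1, present on all endothelium, did not pass, at 31.9, 43.3 and 47.2 CPM in the liver libraries and 30.9, 36.7 and 39.7 CPM in the tumor libraries (log2 difference -0.19, 95% interval -0.70 to 0.32). Of 18 tested sinusoidal endothelial markers 17 were lower. Stab2, a scavenger receptor of liver sinusoids, had 1 count in tumor and 1710 in liver, and Clec4g 1 count and 11109.

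Adhesion molecules that capture leukocytes did not share 1 direction. Of 13 tested, 3 were higher and 6 lower, with a median of -0.61 that turned to 0.49 with library totals. Icam1, the ligand of lymphocyte integrin LFA-1, was at 63.1, 87.5 and 87.7 CPM in the liver libraries and 32.5, 31.2 and 36 CPM in the tumor libraries (log2 difference -1.26 ± 0.20 (SE), adjusted p = 0.0013). Vcam1, the ligand of integrin VLA-4, was at 20.6, 27.9 and 51.9 CPM in liver and 40, 47 and 47.6 CPM in tumor (0.42, 95% interval -0.39 to 1.24), and Selp, which encodes P-selectin, at 1.13, 0.987 and 1.53 CPM in liver and 0.88, 1.28 and 1.44 CPM in tumor (-0.02, 95% interval -0.75 to 0.72). The libraries of the organs overlapped for these last 2 genes and were apart for Icam1, whose difference was -0.13 and did not pass with library totals. Jam2, a junctional adhesion molecule, was at 28, 39.8 and 44.3 CPM in liver and 11.1, 12.2 and 13.1 CPM in tumor (log2 difference -1.62 ± 0.22 (SE), adjusted p = 0.00067; -0.50 and not passed with library totals). Ackr1, the chemokine-binding receptor of venules, had 3 counts in tumor and 481 in liver, a ratio of 367 in favor of liver (95% counting interval 125 to 1784).

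Angiogenic genes stood on both sides, 8 higher and 7 lower of 18 tested (11 higher and 3 lower with library totals). Apln, a peptide of sprouting endothelium and of hypoxic cells, was at 0.134, 0.29 and 0.133 CPM in the liver libraries and 93.2, 105 and 89.3 CPM in the tumor libraries (log2 difference 8.95 ± 0.33 (SE), adjusted p = 3.6e-06). Pgf, placental growth factor, stood at 0.2, 0.29 and 0.2 CPM in liver and 60.1, 41.1 and 67.8 CPM in tumor (log2 difference 7.89 ± 0.35 (SE), adjusted p = 5.7e-06), and Angpt2, which destabilizes vessels, at 2, 1.92 and 2 CPM in liver and 13.1, 20.4 and 24.8 CPM in tumor (log2 difference 3.30 ± 0.29 (SE), adjusted p = 8.3e-05). Receptors lay on both sides, with Flt1, which binds Vegfa and Pgf, higher by 2.37 ± 0.53. Kdr, the main signaling receptor of Vegfa, was at 25.1, 29.8 and 78.3 CPM in liver and 8.44, 7.54 and 10.4 CPM in tumor (log2 difference -2.33 ± 0.46 (SE), adjusted p = 0.0038; not passed with library totals, -1.24), and Tek, the receptor of Angpt2, at 9.35, 12.4 and 22.1 CPM in liver and 0.243, 0.512 and 0.875 CPM in tumor (log2 difference -4.74 ± 0.53 (SE), adjusted p = 0.00027).

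Kupffer cell genes were lower in tumor, whereas other monocyte and macrophage genes lay on both sides. All 12 tested Kupffer cell markers were lower in tumor, also with library totals for 11 of them. Clec4f, a lectin of resident Kupffer cells, was at 346, 301 and 142 CPM in liver and had 0 counts in tumor, at least 9539-fold higher in liver. Of 17 tested monocyte and macrophage markers, 6 were higher and 6 lower in tumor (10 higher and 2 lower with library totals). These counts lie near the shares of all tested genes, 34.1% higher and 33.5% lower. Of the 6 that were lower, Arg1 and Mrc1 differed most. Adgre1, on the common scale of 12 libraries, was at 25.2, 27.1 and 34.7 CPM in treated liver and 11.1, 11.4 and 14.2 CPM in treated tumor. Cd14, the lipopolysaccharide coreceptor, was at 6.41, 9.41 and 5.13 CPM in the liver libraries and 746, 825 and 539 CPM in the tumor libraries (log2 difference 6.65 ± 0.36 (SE), adjusted p = 1e-05), and Spp1, osteopontin, which carcinoma cells also make, at 61.2, 48.9 and 32.3 CPM in liver and 3697, 5812 and 5993 CPM in tumor (log2 difference 6.77 ± 0.41 (SE), adjusted p = 1.7e-05). Itgam and Itgax, integrin chains of myeloid cells, were higher by 3.14 and 3.48.

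Nitric oxide synthase and arginase, which use the same substrate, lay on opposite sides. Nos2 was at 0, 0.174 and 0.267 CPM in the liver libraries and 79.1, 100 and 74.6 CPM in the tumor libraries (log2 difference 9.11 ± 0.55 (SE), adjusted p = 1.6e-05). Arg1, which hepatocytes use in the urea cycle, was at 2455, 2462 and 1704 CPM in liver and 112, 132 and 78.3 CPM in tumor (log2 difference -4.36 ± 0.31 (SE), adjusted p = 3.4e-05). Of 14 tested dendritic cell markers 2 were higher and 5 lower, of 7 neutrophil markers 0 and 2, and of 5 B cell markers 0 and 4. With library totals these were 6 higher and 0 lower, 3 higher and 1 lower, and 0 higher and 2 lower, and the dendritic median turned from -0.55 to 0.58. Among all tested genes 34.1% were higher and 33.5% lower with TMM. Inflammatory cytokines and NF-kB targets had 12 of 26 higher and 4 lower (21 higher and 2 lower with library totals). Lif, a cytokine of the Il6 family, was at 0.134, 0.174 and 0.2 CPM in liver and 20.5, 19.3 and 12.3 CPM in tumor (log2 difference 6.64 ± 0.36 (SE), adjusted p = 1.1e-05), and Il1rn, the interleukin-1 receptor antagonist, at 7.21, 12.3 and 6.13 CPM in liver and 35.4, 45.7 and 37 CPM in tumor (log2 difference 2.20 ± 0.30 (SE), adjusted p = 0.00068). Il18, which resident liver macrophages release, was lower in tumor, at 49.2, 34.8 and 25.3 CPM in liver and 1.61, 0.674 and 0.844 CPM in tumor (log2 difference -5.13 ± 0.44 (SE), adjusted p = 7.4e-05).

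Plasma protein genes were lower in tumor almost throughout, but for several complement genes the organ difference was smaller with the antibody than with vehicle. Of 24 tested complement genes, 22 were lower and 2 higher (2 higher and 19 lower with library totals). C3, on which all complement pathways converge, was at 8779.8, 12218 and 20283 CPM in the liver libraries and 194, 207 and 148 CPM in the tumor libraries (log2 difference -6.23 ± 0.45 (SE), adjusted p = 3.5e-05). With the 12 libraries scaled together, its CPM was 9912, 7587 and 12300.0 in vehicle liver and 2.21, 3.4 and 6.63 in vehicle tumor. The organ difference with the antibody minus that with vehicle was 5.02 ± 0.62 (SE), adjusted p = 0.0011 in edgeR's test of the interaction, on the log2 scale. That test called 2.49% of all genes. The same test called C4b (3.67), Cfb (4.94), C1ra (3.07) and C1s1 (3.47), all proteases or substrates of the same cascade.

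The 2 complement genes that were higher in tumor encode receptors of cleaved complement fragments. C3ar1 was at 1.47, 2.15 and 1.6 CPM in liver and 15.4, 20.3 and 19.5 CPM in tumor, and C5ar1 was higher by 0.90 ± 0.25, a call that ended without liver replicate 2 (0.73, adjusted p = 0.058) or tumor replicate 3 (0.84, adjusted p = 0.0617). Of 32 tested acute phase and plasma protein genes, 29 were lower and 1 higher (2 higher and 27 lower with library totals). That 1 was Lcn2, a siderophore-binding protein of inflamed epithelium, at 298, 2034 and 314 CPM in the liver libraries and 10741, 10229 and 9419.8 CPM in the tumor libraries (log2 difference 3.52 ± 0.83 (SE), adjusted p = 0.0079), with liver replicate 2 at several times the other livers. Saa1, the classic acute phase reactant, was likewise highest in liver replicate 2, at 362, 2804 and 327 CPM in liver and 121, 233 and 93.6 CPM in tumor (log2 difference -2.96 ± 0.93 (SE), adjusted p = 0.026), and Saa2 did not pass. The call of Saa1 ended in the fit of all 12 libraries (adjusted p = 0.0735), with library totals (-1.83, adjusted p = 0.101), in both fits of FPKM, and without tumor replicate 1 (adjusted p = 0.0796) or 3 (adjusted p = 0.0866). Lbp was at 505, 949 and 655 CPM in liver and 662, 642 and 695 CPM in tumor (-0.08, 95% interval -0.70 to 0.54). In the coagulation list 19 of 25 were lower and 5 higher (6 higher and 18 lower with library totals), among the latter F3, tissue factor, at 3.81, 4.36 and 4.2 CPM in liver and 62.9, 53.5 and 59.6 CPM in tumor (log2 difference 3.83 ± 0.19 (SE), adjusted p = 6.8e-06).

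Mitotic genes were higher in tumor, whereas most genes of DNA replication did not pass. Of 27 tested mitotic genes 25 were higher and none lower, with a median of 1.80 (27 higher and 0 lower with library totals). Tpx2, a spindle assembly factor, was at 3.54, 3.89 and 6.87 CPM in the liver libraries and 37, 25.3 and 40.9 CPM in the tumor libraries (log2 difference 2.85 ± 0.33 (SE), adjusted p = 0.00032), and Mki67, which coats mitotic chromosomes, at 1.4, 5.05 and 18.7 CPM in liver and 117, 88.8 and 149 CPM in tumor (log2 difference 3.82 ± 0.85 (SE), adjusted p = 0.0064). The liver value of Mki67 was highest in replicate 3 by several-fold. Of 25 replication genes 6 were higher and 4 lower, with a median of 0.31 (21 higher and 2 lower with library totals).

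In vehicle mice 18 of the same 25 replication genes were higher in tumor, 2 were lower, and the median was 1.72. Of the 27 mitotic genes 25 were higher in vehicle tumor and 0 lower, with a median of 2.82, also above that of treated mice. The median interaction was -0.82 for mitotic genes, -1.46 for replication genes and -0.12 for all tested genes. It passed for 1 mitotic gene, toward liver. Mcm2, a subunit of the replicative helicase, was at 13.1, 19.1 and 18.2 CPM in the liver libraries and 21.7, 17.7 and 23.3 CPM in the tumor libraries (0.31, 95% interval -0.19 to 0.82). On the common scale of 12 libraries, vehicle tumors stood at 46.3, 48.1 and 39.8 CPM and vehicle livers at 7.29, 11.9 and 9.26 CPM. The difference between the 2 organ differences was -1.92 ± 0.30 (SE), adjusted p = 0.0056, and it passed for 7 replication genes in all, each toward liver. Among them Uhrf1, which maintains DNA methylation behind the fork, moved by -4.30 ± 0.50 (SE), adjusted p = 0.00073 and Rrm2, a ribonucleotide reductase subunit, by -2.47 ± 0.52 (SE), adjusted p = 0.027.

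Genes of glycolysis and hypoxia were mostly higher in tumor, 17 of 22 with none lower (20 higher and 0 lower with library totals, which move genes toward tumor). In the fit of all 12 libraries, in limma-voom with quality weights and without liver replicate 3, 2 were lower. DESeq2 called 1 lower. Hk1, a hexokinase that hepatocytes replace by glucokinase, was at 6.07, 6.74 and 11.1 CPM in the liver libraries and 447, 370.2 and 408 CPM in the tumor libraries (log2 difference 5.68 ± 0.32 (SE), adjusted p = 1.2e-05). Car9, an acid-exporting carbonic anhydrase induced by hypoxia, stood at 0.467, 0.581 and 0.866 CPM in liver and 41.7, 35.2 and 42.1 CPM in tumor (log2 difference 5.95 ± 0.28 (SE), adjusted p = 6e-06), and Slc2a1, the glucose carrier Glut1, at 22.2, 20.6 and 20.3 CPM in liver and 192, 204 and 230.1 CPM in tumor (log2 difference 3.31 ± 0.18 (SE), adjusted p = 9.1e-06). Ldha, Tpi1 and Pdk1 differed by -0.63, -0.06 and 0.08 and did not pass. Without liver replicate 3 Ldha was lower in tumor (-0.84, adjusted p = 0.00159 in edgeR). Genes of the unfolded protein response lay the other way, 14 of 24 lower and 3 higher (median -1.05), a direction that turned to 0.07 with 7 higher and 6 lower under library totals. Hspa5, the chief chaperone of the endoplasmic reticulum, was at 5879, 5158 and 5595 CPM in liver and 2423, 2051 and 2036 CPM in tumor (log2 difference -1.35 ± 0.22 (SE), adjusted p = 0.0014; not passed with library totals, -0.22) and Herpud1, of its degradation pathway, at 916, 404 and 709 CPM in liver and 76.1, 73.8 and 70.6 CPM in tumor (log2 difference -3.20 ± 0.33 (SE), adjusted p = 0.00017). Asns, an amino acid stress gene, was higher, at 1.2, 2.79 and 1.47 CPM in liver and 42.4, 40.7 and 39 CPM in tumor (log2 difference 4.47 ± 0.34 (SE), adjusted p = 4.2e-05).

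Cell death genes lay on both sides. Of 22 tested p53 targets and apoptosis genes 9 were higher and 5 lower, and of 15 of necroptosis and pyroptosis 4 were higher and 5 lower (16 higher and 2 lower and 10 higher and 3 lower with library totals). Among all tested genes 34.1% were higher and 33.5% lower, so the necroptosis and pyroptosis counts lie near the share of all genes. Casp1, the inflammasome protease, was at 17.6, 20.5 and 14.3 CPM in the liver libraries and 135, 139.6 and 129 CPM in the tumor libraries (log2 difference 2.94 ± 0.20 (SE), adjusted p = 2.4e-05), and its adaptor Pycard at 16.4, 15.2 and 5.67 CPM in liver and 70.9, 79 and 67.3 CPM in tumor (log2 difference 2.54 ± 0.40 (SE), adjusted p = 0.0013). Gsdmd, the pore-forming substrate of Casp1, was lower in tumor, at 143, 145 and 82.5 CPM in liver and 8.38, 8.75 and 7.66 CPM in tumor (log2 difference -3.90 ± 0.28 (SE), adjusted p = 3.4e-05). Fas, the receptor of Fasl, was at 111, 121 and 75.8 CPM in liver and 5.8, 4.58 and 4.84 CPM in tumor (log2 difference -4.34 ± 0.26 (SE), adjusted p = 1.6e-05). Cdkn1a, the cell cycle inhibitor p21, was higher by 2.87 ± 0.21 and the survival gene Bcl2 by 3.32 ± 0.52 (log2 ± SE).

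In the extracellular matrix list 18 of 27 genes were higher and 6 lower (20 higher and 5 lower with library totals). Lama5, a laminin chain of epithelial basement membranes, was at 1.4, 1.28 and 2.53 CPM in the liver libraries and 394, 373 and 431 CPM in the tumor libraries (log2 difference 7.85 ± 0.35 (SE), adjusted p = 5.7e-06). Col1a1, the main fibrillar collagen, was at 2.6, 5.23 and 8.13 CPM in liver and 159, 202 and 389.8 CPM in tumor (log2 difference 5.55 ± 0.57 (SE), adjusted p = 0.00018), and tumor replicate 3 held the highest value. Dcn, a proteoglycan of fibroblasts and stellate cells, was lower in tumor, at 244, 235 and 266 CPM in liver and 1.49, 4.3 and 8.34 CPM in tumor (log2 difference -5.72 ± 0.64 (SE), adjusted p = 0.00026), as was Col18a1 (-5.36).

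The organ difference was tested for whether it was the same with antibody as with vehicle, by the interaction of organ and treatment in 1 edgeR fit of all 12 libraries. It was greater toward tumor with the antibody for 303 of 16557 genes (1.83%) and greater toward liver for 109 (0.658%). With library totals the counts were 267 and 190. Without liver TDB replicate 3 they were 525 and 171, and without tumor TDB replicate 2 they were 196 and 45. Of the 27 interferon-gamma response genes, 22 moved toward tumor and 0 toward liver. In vehicle mice 20 of the 27 had been lower in tumor than in liver and 1 higher, with a median of -1.73, beside 36.1% and 39.5% of all genes. Igtp, near equal in treated organs, was at 113, 118 and 91.8 CPM in vehicle liver and 14.2, 10.3 and 14.2 CPM in vehicle tumor on the common scale, and its difference moved by 3.22 ± 0.29 (SE), adjusted p = 0.00011. Cxcl9 was at 30.7, 23.4 and 16.5 CPM in vehicle liver and at 0.676, 0.213 and 0.859 CPM in vehicle tumor, and moved by 4.98 ± 0.75 (SE), adjusted p = 0.0041.

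The largest shifts toward tumor among genes with a mean of at least 10 CPM were those of Gm4951 (7.69), Gbp8 (7.60), Gbp4 (6.91), Pigr (6.44), Gbp2b (6.38) and Dnase1l3 (6.38). The first 3 and Gbp2b are interferon-inducible GTPases. Between the treated organs, Gm4951 was itself lower in tumor, a call that held in 9 of 18 alternatives, and Gbp2b did not pass. Pigr carries immunoglobulin A across epithelia, and was at 6.89, 5.38 and 5.15 CPM in vehicle tumor and 565, 787 and 336 CPM in treated tumor. Its liver values were 2050.0, 1239.8 and 2413 CPM with vehicle and 1770.1, 1665 and 2947 CPM with the antibody. Dnase1l3 degrades DNA in blood and dying cells. It stood at 0.215, 0.152 and 0.148 CPM in vehicle tumor and 28.4, 21.6 and 24 CPM in treated tumor. In liver it was at 160.0, 110.0 and 165 CPM with vehicle and 211, 234 and 289 CPM with the antibody. The largest shifts toward liver, at the same minimum of 10 CPM, were those of Col9a3 (-5.72), Rrm2 (-2.47), Derl3 (-2.44), Mcm5 (-2.28), Kitl (-2.27) and Mcm6 (-2.24), with 3 genes of nucleotide supply and replication among them. Of 23 alternative settings, the call held in 15 for Kitl, 16 for Rrm2, 17 for Derl3, 19 for Col9a3 and all 23 for Mcm5 and Mcm6. Across them the value of Col9a3 ran from -5.92 to -0.683, so its size depended on the setting. Toward tumor the call held in all 23 for Gbp4, Gbp8 and Pigr. For Gm4951, Gbp2b and Dnase1l3 it held in 22 and was lost in the limma fit of FPKM plus 1 (adjusted p = 0.0827, 0.129 and 0.697). In that fit Dnase1l3 moved by 0.238.

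**Figure D4:**
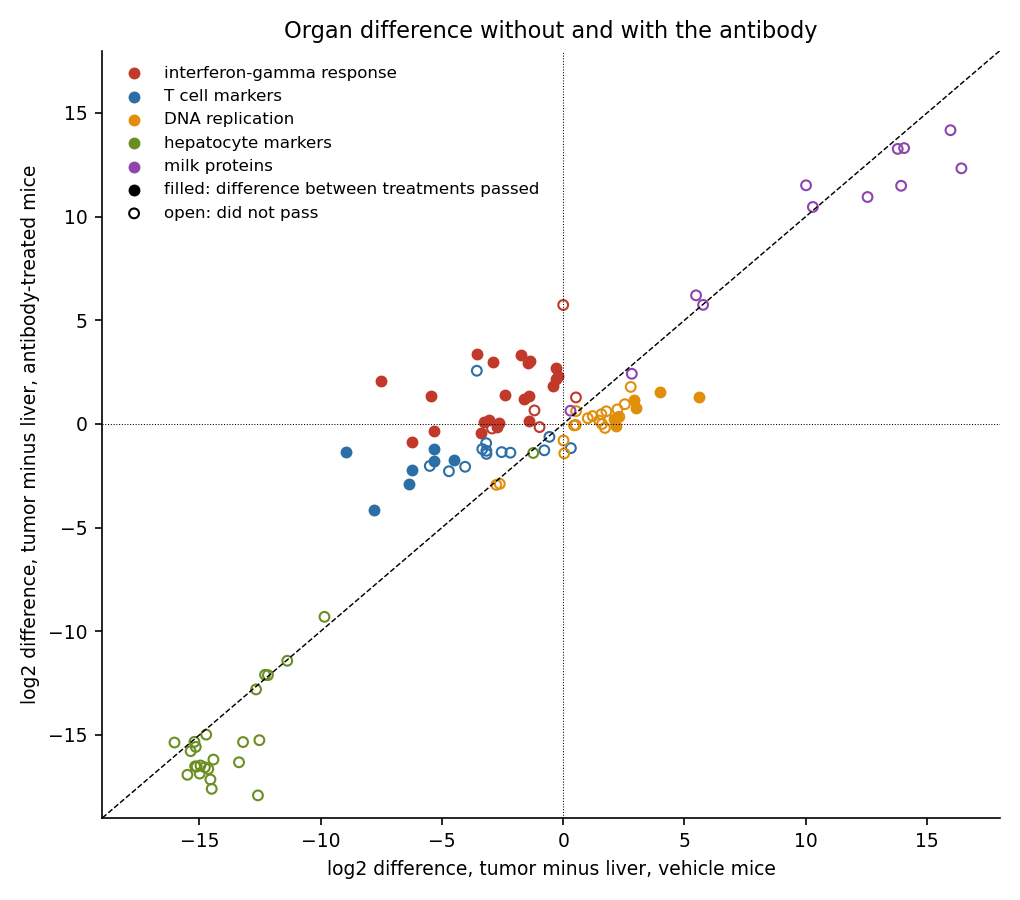
The log2 difference of tumor minus liver in vehicle mice (horizontal) against that in antibody-treated mice (vertical) for 5 gene lists, with filled points where the difference between the treatments passed an adjusted p of 0.05. The dashed line marks equal differences. Of the interferon-gamma response genes 22 of 27 are filled above the line, and 7 of 25 replication genes are filled below it. Values far from 0 often rest on groups with 0 or few counts and are no bounds.

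For 64 genes (0.387% of 16557) the order of the organs turned: the difference passed with one sign in vehicle mice and with the other in treated mice, and the interaction passed, all in the fit of 12 libraries. Of these, 61 went from higher in liver to higher in tumor and 3 the other way (Ccnd1, Fam111a and Rbm20, the last 2 named after their values were seen). Without liver TDB replicate 3 the order turned for 108 genes. Irf1 was at 70.1, 69.8 and 79.6 CPM in vehicle liver and 24, 24.3 and 23.3 CPM in vehicle tumor on the common scale. With the antibody it was at 218, 227 and 302 CPM in liver and 552, 649 and 545 CPM in tumor. Irgm1 went from 77.5, 81 and 91.4 CPM in liver and 33.6, 26.5 and 34.8 in tumor with vehicle to 625, 688 and 1063 CPM in liver and 2021, 2220.5 and 1896 CPM in tumor with the antibody. In both genes the 4 groups were apart, and each treated library lay above each vehicle library of its organ. Gbp4, Parp9, Lgals3bp, Gbp9 and the class I gene H2-Q4 completed the 7 most abundant genes that turned toward tumor. Ccnd1, cyclin D1, turned toward liver, from 235, 225 and 258 CPM in liver and 561, 569 and 659 CPM in tumor with vehicle to 357, 268 and 382 CPM in liver and 261, 159 and 252 CPM in tumor with the antibody. In the fit of the 6 treated libraries alone, 10 of the 64 did not pass, Ccnd1 and Parp9 among them.

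**Figure D5:**
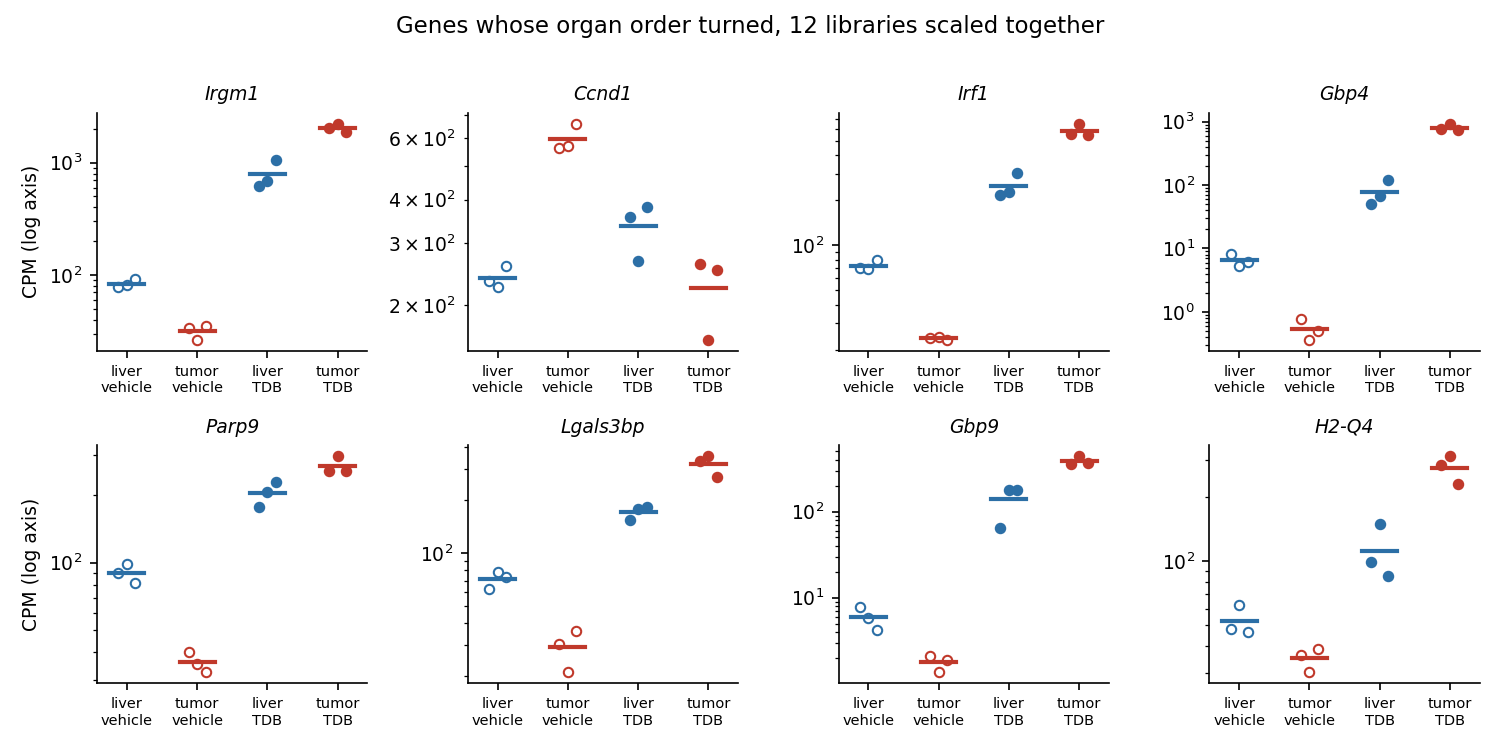
CPM on log axes, with 12 libraries scaled together, for the 8 most abundant genes whose organ order turned, in vehicle (open) and antibody-treated (filled) liver (blue) and tumor (red), with bars at the means of 3 libraries. For 7 genes the tumors are below the livers with vehicle and above them with the antibody, and for Ccnd1 the reverse holds.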

How the data were processed

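Bulk RNA was sequenced from liver and tumor on Illumina HiSeq 4000, per the labels' protocols. The authors deposited raw read counts per gene identifier and a table of FPKM. The submitters' processing notes name GSNAP, limma and GRCm38, with no version or role. In the deposited FPKM, the gene factor was within 1% of the genomic span for 84.2% of 8746 genes checked and of the exonic length for 1.05%, so these values are per gene span and were used in alternatives only. How reads shared by near-identical copies were counted is not given in the sources used here. Symbols came from GENCODE M21 for 52489 of 52636 identifiers, and 147 did not match.

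The 6 antibody-treated libraries were fitted in edgeR 4.0.16 (R 4.3.3) with TMM scaling, a filter on low counts (minimum 10, total 15) and the quasi-likelihood test of tumor minus liver. P-values were adjusted by Benjamini-Hochberg over all 15953 genes, with a threshold of 0.05. The test beyond 2-fold used glmTreat. The interaction was fitted on 12 libraries. On simulated data for the comparison of treated tumor and liver (15953 genes), 82.3% of genes changed 4-fold and 7.14% of those changed 2-fold were recovered, and 5.49% of calls were false. The simulation changed only a small share of the genes, equally up and down, whereas 67.6% were called in the data. These rates therefore need not hold for the data, and the scaling between organs was not probed.

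Named genes were the most different genes, those at the extremes, at the highest level or nearest 0 in each list, the largest interactions, the most abundant turned genes and a set of markers, plus other list members. The lists and genes were chosen with earlier results of these data known. Alternatives were other scalings, filters, DESeq2 1.42.0, limma 3.58.1, the FPKM, a replicate block and leaving out each library. Results of some genes are not reported here.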

Additional observations from a re-analysis of the deposited data

Results flagged for a closer look

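These results differed between the organs' contrasts with antibody and with vehicle, by edgeR's test of the interaction. The tumor minus liver difference was greater with the antibody for 303 genes and smaller for 109, and the order of the organs turned for 64. On the log2 scale, the difference with antibody minus that with vehicle was positive for interferon-induced genes, at 7.69 for Gm4951, 7.60 for Gbp8, 6.91 for Gbp4, 6.38 for Gbp2b, 4.98 for Cxcl9 and 3.22 for Igtp. It was 5.02 for C3, 4.94 for Cfb, 3.67 for C4b, 3.47 for C1s1 and 3.07 for C1ra, all of the complement system. Pigr and Dnase1l3 stood at 6.44 and 6.38. Negative values were -5.72 for Col9a3, -4.30 for Uhrf1, -2.47 for Rrm2, -2.44 for Derl3, -2.28 for Mcm5, -2.27 for Kitl, -2.24 for Mcm6 and -1.92 for Mcm2. Some sizes depended on the setting. Over the alternatives Col9a3 ran from -5.92 to -0.683 and Dnase1l3 from 0.238 to 6.6.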

How the results depend on the processing

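With library totals 9709 genes were higher in tumor and 2556 lower, 6846 and 1750 beyond 2-fold, and the organ difference was smaller with the antibody for 190. Beyond 2-fold, FPKM plus 1 gave 655 higher and 1041 lower, and FPKM plus 0.1 gave 1850 and 1947. FPKM plus 1 also gave 295 genes whose difference was smaller with the antibody. DESeq2 called 582 greater and 315 smaller differences with the antibody, and 99 turned genes. With limma-voom and quality weights these were 1797, 2010 and 269. The cause of these shifts was not tested. Leaving out 1 library gave 4598 to 7105 genes higher, 4552 to 6542 lower, 3024 to 4842 and 2794 to 4099 beyond 2-fold, 196 to 525 greater and 45 to 177 smaller differences with the antibody, and 44 to 108 turned genes. Of 191 named genes with 3385 alternative values, 3229 kept their call, 67 values of 22 genes lost the call, and 87 gained one. Direction was compared only for genes that passed in the main fit. Among those, library totals turned the sign of Fam111a (0.33) and Gm4951 (0.0334). Genes that had not passed also changed sign with library totals, for example Cxcl9 (0.79), Ldha (0.52) and H2-K1 (0.94). Of 483 alternative values of the named interactions, 453 kept the call and 30, of 9 genes, lost it. With the replicate block 5356 genes were higher and 4941 lower. Same-numbered liver and tumor libraries deviated together weakly (correlations 0.0246, 0.0205 and 0.104), and no label ties the numbers to mice.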
